A study of Mus musculus with 18 samples.

Results

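Livers of mice that lack Hmgn1 were compared with livers of wild-type mice at 4 weeks, before any injection. The comparison holds 6 of the 18 arrays of the series: 3 arrays labelled as knockout (Hmgn1-/-) and 3 arrays labelled as wild type (Hmgn1+/+), all of liver with the treatment given as none. They were chosen by these labels alone and not by any measured value. The other 12 arrays are 3 knockout and 3 wild-type livers injected with saline and 3 knockout and 3 wild-type livers injected with the liver carcinogen N-nitrosodiethylamine (DEN), for which the labels give 12 weeks. Males received those injections at 4 weeks of age, and the labels do not state the sex of the uninjected animals. Both genotypes descend from crosses of Hmgn1+/- mice, after which Hmgn1+/+ and Hmgn1-/- homozygotes were bred as lines of their own, so the loss of Hmgn1 and any other difference between the lines cannot be told apart. The labels do not say whether each array is a separate animal, so the spread between arrays may be technical. The p-values rest on a spread pooled over all 18 arrays, not on that of the 6 compared arrays alone. The labels give neither the hour of collection nor the feeding state.

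HMGN1 is a small nuclear protein that binds nucleosomes and competes with linker histone H1, and through both it affects how compact and how accessible chromatin is. Because it binds nucleosomes without a fixed DNA motif, its loss has been studied for broad, modest changes in transcription and for effects on DNA repair. At weaning age the mouse liver is passing from a milk diet, rich in fat, to a diet rich in carbohydrate. The genes of lipid synthesis, bile acids, metals and sex-dependent growth hormone signalling are then still reaching their adult levels.

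Each array reports 1 signal per probe set, a linear intensity that the authors had scaled so that every array has the same trimmed mean. Differences are given as knockout minus wild type in log2 of the signal plus 16, with their standard error (SE) from limma, and a difference is called, or said to have risen or fallen, where its p adjusted over the 27022 tested probe sets was under 0.05. Where a call was lost in a fit without 1 array, the difference is given from the fit with the highest adjusted p. Signals are listed in the order of replicates 1, 2 and 3, and they compare the same probe set between groups, never one gene with another. The log2 values of any pair of the 6 arrays correlated across probe sets at 0.969 to 0.982. Gapdh probes at the 3' end read higher than those at the 5' end where RNA is degraded, and the ratio was 1.70, 1.35 and 1.45 on the knockout arrays and 1.13, 2.19 and 1.29 on the wild-type arrays. Knockout replicate 1 and wild-type replicate 2 were therefore the highest of their groups, and the calls that held without both are counted below. That fit has 2 fewer arrays, and of 97 called genes of the named set and the lists 40 stayed called in it with none changing sign. With the Gapdh ratio as a covariate all 97 stayed called, at 0.976 to 1.025 times their differences without it. The wild-type ratios lie on both sides of the knockout ratios, so this covariate could move the differences little. The part of RNA quality in the calls was therefore not tested by it. Defining hepatocyte genes such as Alb and Apoa1 were high on all 6 arrays, as the label liver requires.

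The Hmgn1 transcript did not separate the groups on these probes. Its probe set of highest mean (chromosome 16, 96121588 to 96127725 in GRCm38.p6) read 6864, 6667 and 6503 in knockout livers and 6084, 7948 and 6724 in wild-type livers, a difference of -0.04 (SE 0.10, adjusted p 0.898). The other tested probe sets of the gene differed by -0.10 and -0.11, with adjusted p of 0.669 and 0.577. The groups overlapped in the probe set of highest mean, and its sign changed with quantile normalization (0.01), without wild-type replicate 2 (0.06) and without both arrays of highest Gapdh ratio (0.04). Neither the deleted part of Hmgn1 nor the place of these probes is given in the sources used here, so the signals check nothing about the labels. Of the other HMG genes, Hmgn3 differed by -0.57 (SE 0.33, adjusted p 0.443) and Hmgn5 by 0.18, and 0 of 6 tested members of the family were called.

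Between the uninjected groups 611 of 27022 probe sets were called, which is 2.26% of those tested, with 343 higher and 268 lower in knockout livers. Counted once per gene, by the tested probe set of highest mean, 397 of 12896 genes were called (3.08%), 230 of them higher (1.78% of the genes) and 167 lower (1.29%). These shares are the background for the counts of list members below. The called differences were modest: their median size was 0.61 in log2, and 23 genes rose and 33 fell by at least 2-fold. Most of them lay among well-expressed genes, since 6.20% of the genes in the highest of 4 equal classes of mean signal were called, against 0.372% in the lowest class. The median difference over all tested probe sets was 0.02. When array medians were set equal the called probe sets numbered 367 and their split turned to 169 higher and 198 lower, or 46.0% higher against 56.1% in the deposited scaling. The groups did not overlap in 396 of the 397 called genes, beside 23.0% of all genes tested. Of the called genes 212 had further tested probe sets, 391 in all, of which 321 had the same sign and 51 were called with it. Another 1 was called with the opposite sign, and in 154 of the 212 genes all further probe sets had the same sign. Without 1 array, 117 of the 397 genes kept their call in each of the 6 fits, and 57 lost it in all 6. The called probe sets numbered 281, 304 and 277 without knockout replicate 1, 2 and 3 in turn, 400 without wild-type replicate 1 and 269 without wild-type replicate 3. They numbered 180 without both arrays of highest Gapdh ratio and 810 with the ratio as a covariate.

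**Figure D1:**
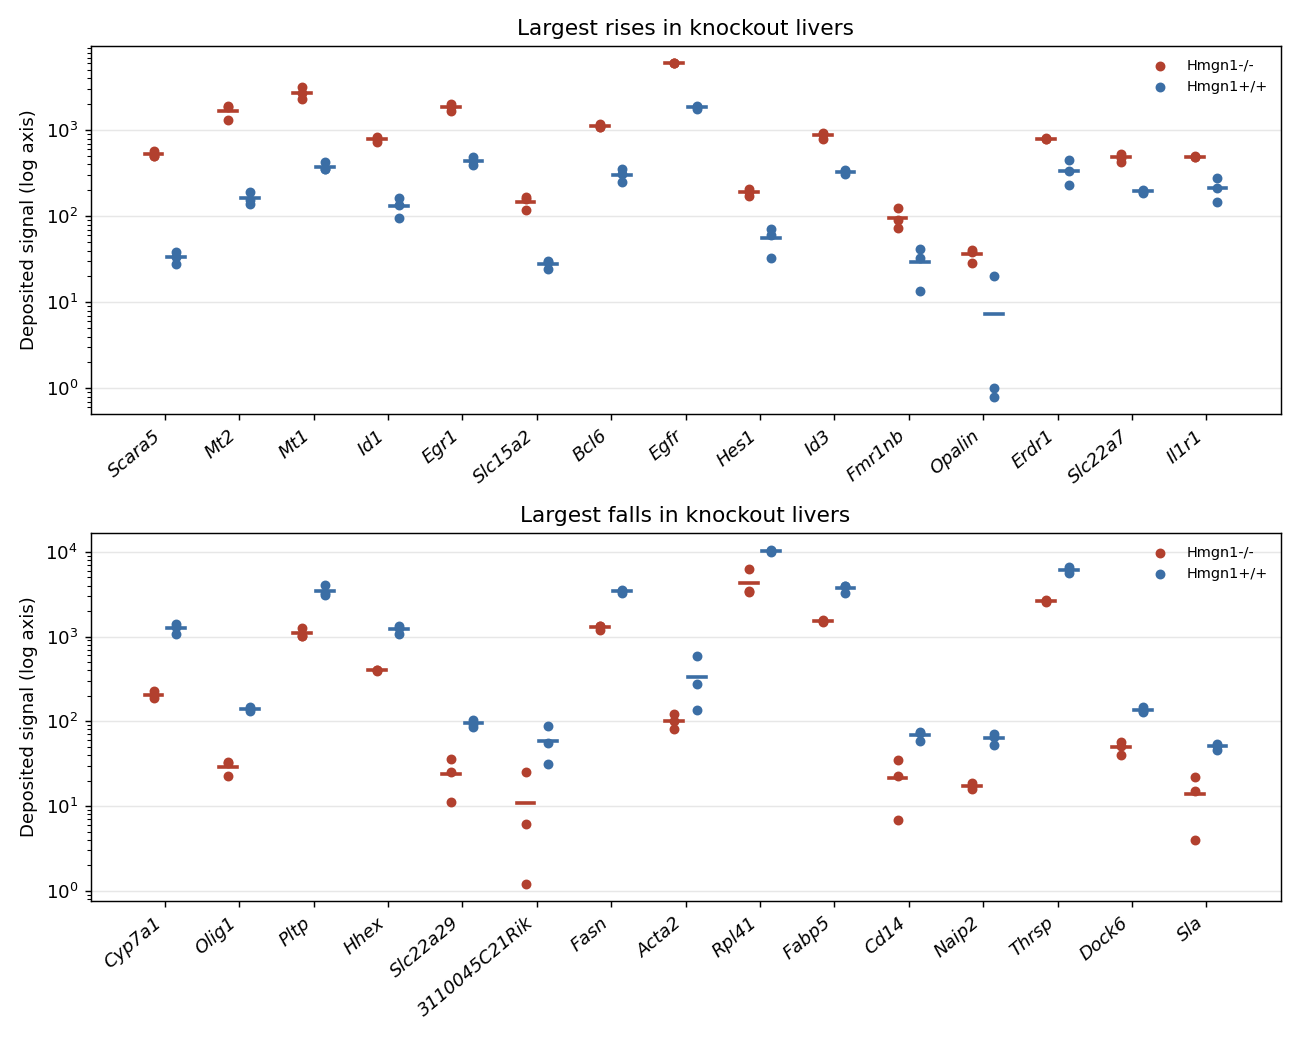
Deposited signals on the 6 uninjected 4-week arrays (log axis) for the 15 genes with the largest called rises (top) and the 15 with the largest called falls (bottom), knockout arrays in red to the left of wild-type arrays in blue. Each point is 1 array and each short line the group mean; the 3 knockout arrays lie apart from the 3 wild-type arrays in all 30 genes, and Opalin, Cd14, Sla and 3110045C21Rik have the lowest signals.

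The largest rise of all genes was in a gene of iron uptake, and those that followed were metallothioneins. Scara5, a scavenger receptor that takes up ferritin (chromosome 14, 65666403 to 65764826), read 503, 572 and 500.1 in knockout livers and 27.9, 38.6 and 33.2 in wild-type livers. Every knockout array was far above every wild-type array, and the difference was 3.46 (SE 0.27, adjusted p 2.34e-07). The wild-type signals are close to the lowest that were tested, so that its size depends on the number added before the logarithm, and the gene's other probe set, near that floor in both groups, differed by -0.05. Mt2, a metallothionein that binds zinc and copper (chromosome 8, 94172618 to 94173567), read 1894, 1316 and 1851 in knockout livers against 153, 192 and 139 in wild-type livers. Its neighbour Mt1 (chromosome 8, 94178883 to 94180327) read 3147, 2306 and 2747 in knockout livers and 429, 352 and 355 in wild-type livers. Both metallothioneins were thus several times higher on each knockout array, by 3.26 for Mt2 (SE 0.69, adjusted p 0.0131) and 2.79 for Mt1 (SE 0.58, adjusted p 0.012). For Mt2 the call was lost without knockout replicate 1 or 3 or wild-type replicate 3 (3.16, adjusted p 0.0597, without knockout replicate 1). Mt1 lost its call without knockout replicate 1 or wild-type replicate 3 (2.69, adjusted p 0.0585, without knockout replicate 1). The probe set of Mt1 has a name in _s_at, a mark of probes that may also bind other transcripts.

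Several metal transporters rose by smaller sizes. Slc30a1, which exports zinc from the cell and is a target of the zinc-sensing factor MTF1, read 655, 624 and 573 in knockout livers and 362, 355 and 407 in wild-type livers, a rise of 0.70 (SE 0.13, adjusted p 0.00417). Slc39a14, an importer of zinc and of iron that is not bound to transferrin, read 937, 872 and 989 in knockout livers and 662, 656 and 643 in wild-type livers, a rise of 0.50 (SE 0.08, adjusted p 0.00163). Steap4, which reduces iron and copper, read 1209.9, 1318 and 1142 in knockout livers against 721, 545 and 784 in wild-type livers and rose by 0.84 (SE 0.12, adjusted p 0.000956). In none of the 3 did the groups overlap. Of 10 tested genes of metallothioneins and zinc handling, 4 rose and 0 fell, with a median of 0.22 beside 0.02 over all genes. Mtf1 itself differed by 0.15 (adjusted p 0.749). Of 22 tested genes of iron handling 3 rose and 0 fell, beside 1.78% of all genes higher, with a median of 0.02, and the regulators of systemic iron were not called: Hamp, which encodes hepcidin, differed by 0.17, its paralog Hamp2 by -0.71, the transferrin receptors Tfrc and Tfr2 by 0.16 and -0.04, and the iron exporter Slc40a1 by -0.15. Slc39a14 belongs to both lists. Without both arrays of highest Gapdh ratio 3 of the 3 iron calls held, and 1 of the 4 calls of metallothioneins and zinc, that of Slc39a14. Mt1, Mt2 and Slc30a1 lost their calls in that fit. Among 9 tested genes of heme synthesis, Urod, the uroporphyrinogen decarboxylase, fell by 0.36 (SE 0.08, adjusted p 0.0113), while Alas1, the rate-limiting enzyme, differed by -0.71 (adjusted p 0.101). For Urod the call was lost without knockout replicate 2 or wild-type replicate 3 (-0.34, adjusted p 0.0582, without knockout replicate 2).

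MTF1 binds metal response elements, whose core is TGCACNC or TGCGCNC. Mt1, Mt2 and Slc30a1 were searched for it on both strands in RefSeq promoter windows, a search chosen after the values were seen. The windows (GRCm38.p6) run from 250 bases before to 50 after the start. Scara5 and Slc39a14 have no such window, and Steap4 was not searched. Of 32851 such windows 25.7% hold at least 1 match, so a single match is common, while 0.517% hold 4 or more. Mt2 holds 4, Mt1 3 and Slc30a1 2. The stretches that hold them are printed because these 3 genes rose together; they lie on the plus strand, at chr8:94179046-94179135 for Mt1, chr8:94172375-94172648 for Mt2 and chr1:191906718-191906830 for Slc30a1, read 5′ to 3′ with each match in capitals.
Mt1: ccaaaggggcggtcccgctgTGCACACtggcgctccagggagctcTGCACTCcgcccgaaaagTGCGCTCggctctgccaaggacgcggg
Mt2: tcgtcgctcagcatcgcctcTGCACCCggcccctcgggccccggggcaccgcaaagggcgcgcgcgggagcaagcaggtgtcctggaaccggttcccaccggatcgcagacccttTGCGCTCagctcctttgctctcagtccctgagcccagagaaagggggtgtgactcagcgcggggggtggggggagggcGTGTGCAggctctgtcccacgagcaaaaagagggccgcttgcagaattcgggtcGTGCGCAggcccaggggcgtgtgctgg
Slc30a1: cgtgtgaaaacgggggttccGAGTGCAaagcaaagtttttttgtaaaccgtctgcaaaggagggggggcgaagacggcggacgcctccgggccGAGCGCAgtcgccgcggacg
A match describes these letters only; binding was not measured.

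Several targets of BMP signals rose. BMPs are secreted ligands whose receptors phosphorylate SMAD proteins, and the Id genes, which encode inhibitors of basic helix-loop-helix transcription factors, are their classical targets in liver. Id1 (chromosome 2, 152736251 to 152737410) read 842, 787 and 729 in knockout livers and 163, 95.1 and 133 in wild-type livers, a rise of 2.48 (SE 0.19, adjusted p 2.34e-07). Id2 read 2717, 2454 and 2670.5 in knockout livers and 1269, 1234 and 1349 in wild-type livers, a rise of 1.02 (SE 0.17, adjusted p 0.00235). Id3 read 798, 901 and 934 in knockout livers and 334, 306 and 346 in wild-type livers, a rise of 1.37 (SE 0.13, adjusted p 3.29e-06). For the 3 Id genes the lowest knockout array was above the highest wild-type array, and their calls held in each of the 6 fits without 1 array. The feedback inhibitors Smad7 and Skil rose as well, by 0.95 for Smad7 (SE 0.23, adjusted p 0.0336) and 0.70 for Skil (SE 0.12, adjusted p 0.0021). Smad7 lost its call without knockout replicate 1, 2 or 3 or wild-type replicate 1 or 3 (0.84, adjusted p 0.147, without knockout replicate 3). In all 5 of 31 tested members rose and 0 fell, beside 1.78% of all genes higher, 25 were positive, and the median was 0.15. The ligands and receptors were not called, with Bmp2 at 0.10, Bmp6 at 0.05, Bmpr1a at 0.12, Bmpr2 at 0.29 and Acvrl1 at -0.33, nor were Smad1 (0.10), Smad6 (0.16) and Id4 (0.27). Hamp, another BMP target in hepatocytes, differed by 0.17 (adjusted p 0.557). Without both arrays of highest Gapdh ratio 3 of the 5 calls held.

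The receptor of epidermal growth factor and a Notch target rose as well. Egfr (chromosome 11, 16752203 to 16913907), which drives hepatocyte growth, read 6104, 6007 and 6102 in knockout livers and 1935, 1762 and 1852 in wild-type livers, with little spread within either group. The rise was 1.71 (SE 0.17, adjusted p 8.63e-06), and another of its probe sets rose by 1.33 (SE 0.23, adjusted p 0.00298). The remaining 4 tested ones were not called, at 0.27, 0.13, 0.46 and -0.35. In the probe set at 0.27 (adjusted p 0.17) Egfr read 770, 903 and 896 in knockout livers and 732, 690 and 697 in wild-type livers. Its relatives Erbb2 and Erbb3 differed by 0.38 and 0.03, the ligands Egf, Tgfa and Hbegf by -0.10, 0.32 and -0.11, and the feedback inhibitor Errfi1 by 0.05. Spred2, an inhibitor of the MAP kinase pathway, rose by 0.61 (SE 0.13, adjusted p 0.0165). For Spred2 the call was lost without knockout replicate 1, 2 or 3 or wild-type replicate 2 (0.60, adjusted p 0.0648, without knockout replicate 3). In all 2 of 19 tested genes of the receptor and its feedback rose and 0 fell, a count too small to set apart from the 1.78% of all genes that rose. Hes1 (chromosome 16, 30065357 to 30067796), a repressor induced by Notch, read 191, 209 and 171 in knockout livers and 71.4, 33.1 and 61.2 in wild-type livers, a rise of 1.57 (SE 0.22, adjusted p 0.000863). Its relative Hes6 fell by 0.51 (SE 0.09, adjusted p 0.00217). The groups did not overlap for either gene. No other of the 15 tested genes of the pathway was called, among them the ligand Jag1 (-0.01), the receptors Notch1 and Notch2 (0.02 and -0.26) and the target Hey1 (0.10). Sox9, a Notch target and bile duct marker, differed by 0.61 (adjusted p 0.203).

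Cholesterol synthesis was lower in knockout livers along nearly its whole length. The pathway turns acetyl-CoA into mevalonate and isoprenoids and then, through squalene, into cholesterol, and its genes are driven together by the factor SREBP2 when sterols are low. In the mevalonate branch 6 of 7 tested genes fell and 0 rose, with a median of -1.02. Hmgcs1, which makes HMG-CoA, read 7908, 6664 and 6513 in knockout livers and 12021, 19175 and 15199 in wild-type livers, a fall of 1.12 (SE 0.24, adjusted p 0.0166). Mvk, mevalonate kinase, read 26.9, 61.7 and 79.5 in knockout livers and 145, 113 and 144 in wild-type livers, a fall of 1.13 (SE 0.21, adjusted p 0.00473). Pmvk, the kinase of the next step, read 375, 453 and 409.5 in knockout livers and 851, 853 and 845 in wild-type livers, a fall of 1.02 (SE 0.16, adjusted p 0.00177). For the 3 genes each knockout array was below each wild-type array. Hmgcs1 lost its call without knockout replicate 2 or 3 or wild-type replicate 2 or 3 (-1.06, adjusted p 0.0751, without knockout replicate 3). The steps that follow fell as well, with Mvd at -0.76, Idi1 at -0.69 and Fdps at -1.15. Fdps read 946, 1335 and 1156 in knockout livers and 3415, 1663 and 2870.3 in wild-type livers, where replicate 2 was near the knockout arrays. For Mvd the call was lost without knockout replicate 1 or 2 or wild-type replicate 1, 2 or 3 (-0.72, adjusted p 0.115, without knockout replicate 1). Idi1 lost its call without knockout replicate 2 or 3 or wild-type replicate 3 (-0.63, adjusted p 0.0738, without knockout replicate 3). For Fdps the call was lost without knockout replicate 1 or 3 or wild-type replicate 1 or 3 (-1.02, adjusted p 0.095, without knockout replicate 1). Ggps1, which leads to protein prenylation rather than to cholesterol, differed by 0.10 (adjusted p 0.842).

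From squalene to cholesterol 8 of 11 tested genes fell and 0 rose, all 11 were negative, and the median was -0.68. Fdft1, squalene synthase, read 1841, 1613 and 1643 in knockout livers and 3076, 3668 and 3674 in wild-type livers, a fall of 1.02 (SE 0.16, adjusted p 0.00126). Sqle, squalene epoxidase, read 442, 401 and 384 in knockout livers against 926, 742 and 903 in wild-type livers, a fall of 1.03 (SE 0.17, adjusted p 0.00211). Lss, lanosterol synthase, read 268, 263 and 215 in knockout livers and 494, 577 and 494 in wild-type livers, a fall of 1.03 (SE 0.15, adjusted p 0.00091). The enzymes that trim lanosterol fell by differing sizes: Msmo1 by 1.08, Hsd17b7 by 0.68, Nsdhl by 0.49, Sc5d by 0.45 and Cyp51 by 0.44. Each of these 5 calls depended on single arrays. Msmo1 lost its call without knockout replicate 1 or 3 or wild-type replicate 1 or 3 (-0.998, adjusted p 0.0946, without knockout replicate 1). For Hsd17b7 the call was lost without knockout replicate 2 or 3 or wild-type replicate 2 or 3 (-0.63, adjusted p 0.118, without knockout replicate 3). Nsdhl lost its call without knockout replicate 1, 2 or 3 or wild-type replicate 1 or 3 (-0.45, adjusted p 0.146, without knockout replicate 1). For Sc5d the call was lost without knockout replicate 1, 2 or 3 or wild-type replicate 1 or 3 (-0.39, adjusted p 0.194, without wild-type replicate 3). Cyp51 lost its call without any 1 of the 6 arrays (-0.42, adjusted p 0.133, without knockout replicate 2). Dhcr7, the reductase of the last step, differed by -0.91 (SE 0.24, adjusted p 0.0507), Ebp by -0.14 and Tm7sf2 by -0.19. Over both stretches 14 of 18 genes were called, beside 1.29% of all genes called lower, the groups did not overlap in 16, beside 23.0% of all genes, and the median was -0.84. The number of these 14 calls was 10 without wild-type replicate 2, 8 without knockout replicate 1 or wild-type replicate 1, 7 without knockout replicate 2, 6 without knockout replicate 3 and 5 without wild-type replicate 3. Mvk, Pmvk, Fdft1, Sqle and Lss are the 5 that held in each of these fits. Without both arrays of highest Gapdh ratio 6 of the 14 held. None of the 14 changed sign in these fits.

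Of the genes that control the pathway, Srebf1, which encodes SREBP1, fell by 0.51 (SE 0.12, adjusted p 0.0236) and Insig1, a target that retains SREBPs in the endoplasmic reticulum, by 0.42 (SE 0.10, adjusted p 0.0309). The groups did not overlap in either. For Srebf1 the call was lost without knockout replicate 1 or 3 or wild-type replicate 1 or 3 (-0.48, adjusted p 0.0932, without wild-type replicate 3). Insig1 lost its call without knockout replicate 1, 2 or 3 or wild-type replicate 2 or 3 (-0.33, adjusted p 0.104, without wild-type replicate 2). Srebf2 differed by 0.25 (adjusted p 0.66), Scap, the escort of SREBPs, by 0.06, and Insig2 by 0.31. In all 2 of 12 tested genes of SREBP control and the LDL receptor fell and 0 rose, beside 1.29% of all genes lower. Of the 12 genes 7 were positive and 5 negative, and the median was 0.03, so the list as a whole was not lower. Sterol response elements were searched for as TCACNCCA on both strands in the same promoter windows, where 4.36% of all windows hold 1. Of the 18 called genes of sterol and fatty acid synthesis 15 have a window, and 2 of those hold a match, Hmgcs1 and Msmo1. The stretches around these matches are printed for comparison of the elements, at chr13:119690194-119690241 on the plus strand for Hmgcs1 and chr8:64733728-64733775 on the minus strand for Msmo1, with the match in capitals.
Hmgcs1: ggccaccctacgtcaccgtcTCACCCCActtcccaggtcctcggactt
Msmo1: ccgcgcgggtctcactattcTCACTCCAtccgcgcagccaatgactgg
For the other 13 genes the search says only that these letters are not in the window.

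**Figure D2:**
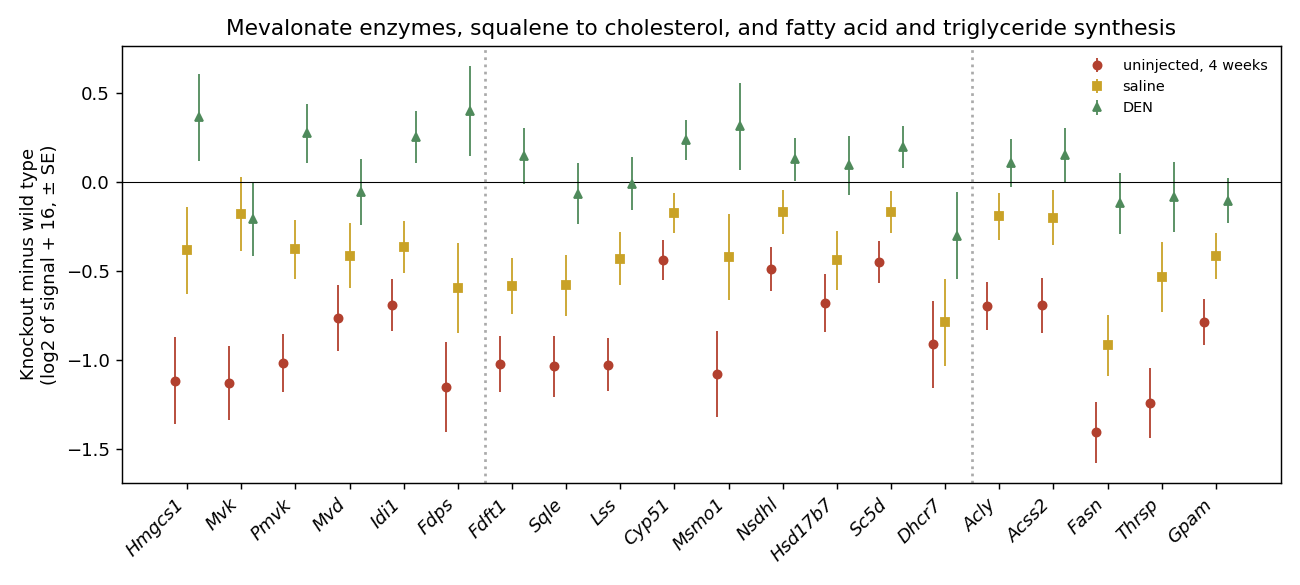
Knockout minus wild-type differences (log2 of signal plus 16, ± SE) of genes of the mevalonate branch, of the steps from squalene to cholesterol and of fatty acid and triglyceride synthesis, left to right between dotted lines, on uninjected 4-week, saline and DEN arrays. The 20 genes shown were, except for Dhcr7, called at 4 weeks. Most members of these lists that were not called, such as Ggps1, Ebp and Acaca, are left out. The range at 4 weeks, from -1.41 (Fasn) to -0.44 (Cyp51), is therefore that of chosen genes and not of the whole lists. With DEN most lie near or above 0.

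Bile acids are made from cholesterol, and their rate-limiting enzyme showed the largest fall of all genes. Cyp7a1 (chromosome 4, 6265612 to 6275632) read 228, 188 and 202 in knockout livers and 1390.3, 1082 and 1283 in wild-type livers. The groups were far apart, with a fall of 2.51 (SE 0.23, adjusted p 3.49e-06), and its other probe set fell by 1.70 (SE 0.33, adjusted p 0.00753). Cyp7b1, the oxysterol hydroxylase of the alternative route, went the other way: it read 8715, 8560.5 and 8808 in knockout livers and 5463, 4672 and 5374 in wild-type livers, a rise of 0.75 (SE 0.12, adjusted p 0.0021). Slco1a1, a transporter that takes up organic anions, rose by 0.45 (SE 0.08, adjusted p 0.00395). The other 23 of 26 tested genes were not called, and the median was -0.04. Cyp8b1, which sets the share of cholic acid, differed by -0.57 (adjusted p 0.322), Cyp27a1 by -0.06, and the export pump Abcb11 by 0.23. Nr0b2, which encodes the repressor SHP, differed by 0.58 (adjusted p 0.268), the bile acid receptor Nr1h4 by -0.20, and Fgfr4 and Klb, the receptor pair for intestinal FGF15, by -0.01 and -0.07. Without both arrays of highest Gapdh ratio the call of Cyp7a1 held and those of Cyp7b1 and Slco1a1 did not.

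Fatty acid synthesis was lower at a few of its steps. Fasn, fatty acid synthase (chromosome 11, 120805958 to 120825166), read 1338, 1179.7 and 1326 in knockout livers and 3455, 3246 and 3555 in wild-type livers, a fall of 1.41 (SE 0.17, adjusted p 0.000121). Thrsp, a thyroid-responsive protein of lipogenesis, read 2663, 2599.9 and 2533 in knockout livers and 6556, 5616 and 6342 in wild-type livers, a fall of 1.24 (SE 0.20, adjusted p 0.00157). Its other tested probe set fell by 1.43 (SE 0.28, adjusted p 0.00801). Acly and Acss2, which supply acetyl-CoA from citrate and from acetate, fell by 0.70 (SE 0.13) and 0.69 (SE 0.15). For Acss2 the call was lost without knockout replicate 1, 2 or 3 or wild-type replicate 2 or 3 (-0.67, adjusted p 0.0756, without knockout replicate 1). In all 4 of 17 tested genes fell and 0 rose, 15 were negative, and the median was -0.33. Acaca, the carboxylase that commits carbon to fatty acids, differed by -0.13, the desaturase Scd1 by -0.04, the elongase Elovl6 by -0.33, Pnpla3 by -1.15 (adjusted p 0.0973) and Mlxipl, the carbohydrate-sensing factor ChREBP, by 0.28, with none called. Pklr, liver pyruvate kinase and a ChREBP target, fell by 0.52 (SE 0.11, adjusted p 0.012), the only call among 26 genes of insulin action and fasting, where Pck1 differed by 0.59, Igfbp1 by 0.21 and Fgf21 by 0.21. Pklr lost its call without knockout replicate 3 (-0.47, adjusted p 0.0716). Of 26 genes of fatty acid oxidation and PPAR-alpha targets 0 were called, with a median of 0.00. Of the 4 calls in fatty acid synthesis 2 held without both arrays of highest Gapdh ratio.

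In triglyceride synthesis Gpam, the acyltransferase of its initial step, read 4126, 3797 and 3996 in knockout livers and 6238, 7003 and 7384 in wild-type livers, a fall of 0.79 (SE 0.13, adjusted p 0.00186). Agpat2, which acts after it, fell by 0.47 (SE 0.10, adjusted p 0.012), and Dgat1 and Dgat2, which close the pathway, differed by -0.03 and -0.14. For Agpat2 the call was lost without knockout replicate 2 or wild-type replicate 1 or 3 (-0.44, adjusted p 0.0635, without knockout replicate 2). These were 2 of 19 tested genes, with a median of 0.07. Among 22 genes of lipoproteins, Pltp, the phospholipid transfer protein (chromosome 2, 164839518 to 164857708), read 1268, 1025 and 1008 in knockout livers and 3265, 4043 and 3099 in wild-type livers, a fall of 1.64 (SE 0.23, adjusted p 0.000754). Its other probe set differed by -0.60 (adjusted p 0.286). Abcg8, a sterol exporter into bile, rose by 0.51 (SE 0.12, adjusted p 0.0284), and its partner Abcg5 differed by 0.52 (adjusted p 0.0555). Abcg8 lost its call without knockout replicate 2 or 3 or wild-type replicate 3 (0.43, adjusted p 0.14, without wild-type replicate 3). The apolipoprotein genes Apoa1 (0.06), Apob (-0.04) and Apoe (-0.04) were not called. Fabp5, a fatty acid binding protein, read 1512, 1565 and 1479 in knockout livers and 3969, 3238 and 3937 in wild-type livers, a fall of 1.28 (SE 0.31, adjusted p 0.0329). Its other probe set also fell, by 1.44 (adjusted p 0.0269). For Fabp5 the call was lost without knockout replicate 1, 2 or 3 or wild-type replicate 1 or 3 (-1.23, adjusted p 0.108, without wild-type replicate 3).

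**Figure D3:**
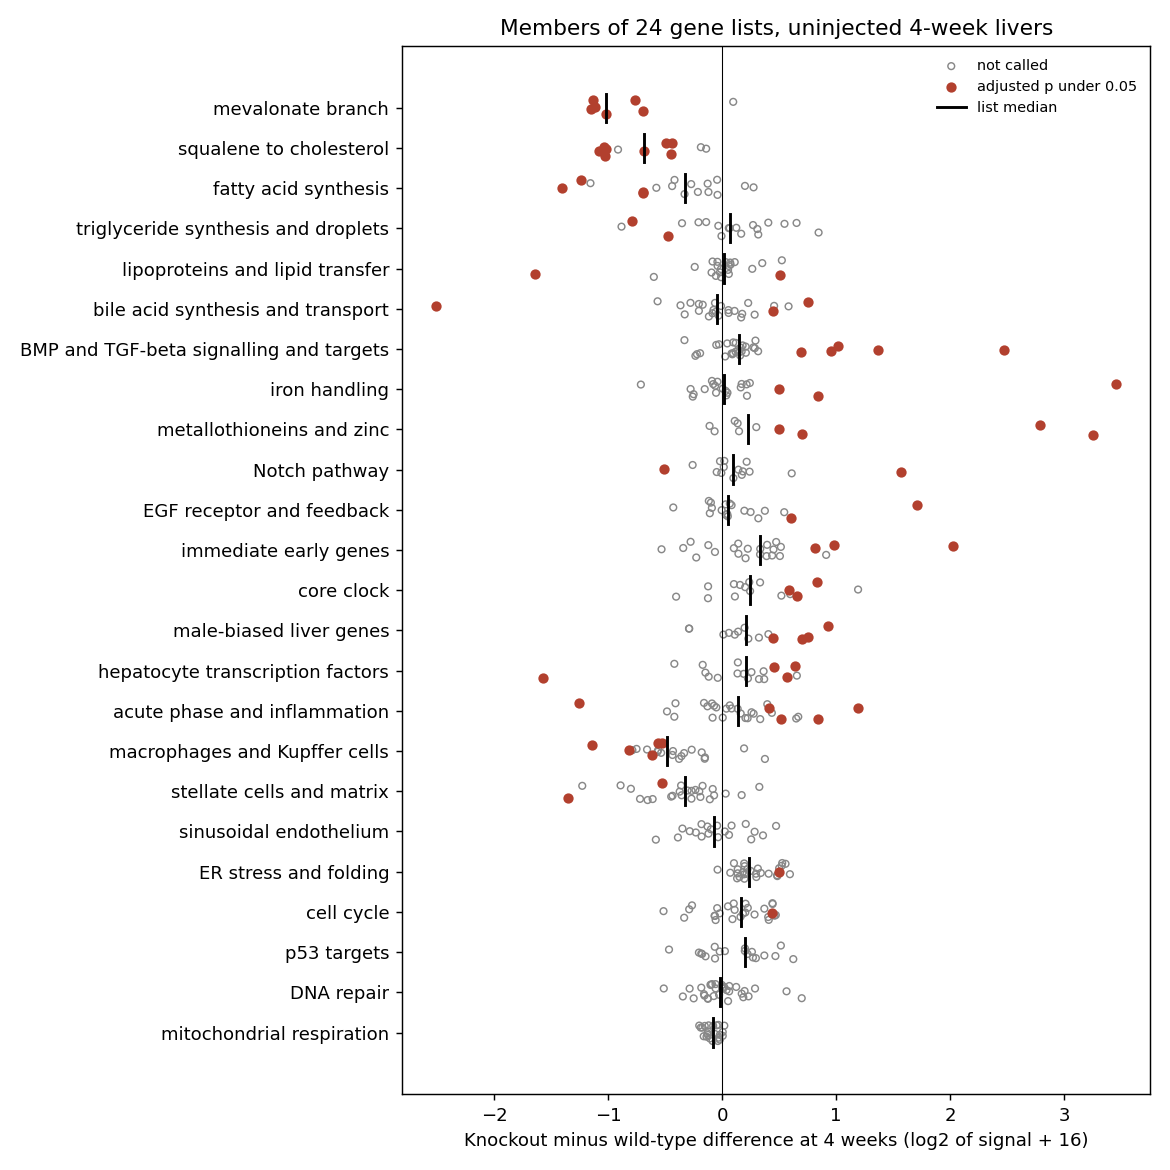
Knockout minus wild-type differences at 4 weeks (x axis, log2 of signal plus 16) of the tested members of 24 gene lists, with called members filled red, members not called as open grey circles and the list median as a black bar. The called members of cholesterol and fatty acid synthesis and of macrophages lie below 0, and those of BMP targets, metallothioneins, iron handling, immediate early genes and male-biased genes above it.

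Growth hormone signals in pulses in males, through STAT5, and this pattern sets the sex bias of many liver genes. Bcl6, a repressor in that pathway (chromosome 16, 23965050 to 23988866), read 1098, 1078 and 1194 in knockout livers and 248, 357 and 312 in wild-type livers, a rise of 1.84 (SE 0.36, adjusted p 0.00771). Its other probe set differed by 0.74 (adjusted p 0.239). Igfbp2, which binds insulin-like growth factors, read 8530.1, 8389.8 and 8465 in knockout livers and 5177, 5498 and 5139 in wild-type livers, a rise of 0.68 (SE 0.14, adjusted p 0.00955). The receptor Ghr (-0.02), Stat5b (0.01), Igf1 (0.15) and the feedback gene Socs2 (1.01, adjusted p 0.147) were not called, so that 2 of 15 tested genes of the axis rose and 0 fell. Of 14 tested genes known to be higher in male liver, 4 rose and 0 fell, and the median was 0.21. Hsd3b5, a steroid dehydrogenase, read 3960.1, 3844 and 3938 in knockout livers and 2444, 2275 and 2488 in wild-type livers, a rise of 0.70 (SE 0.12, adjusted p 0.00305). Ugt2b38, a glucuronosyltransferase, rose by 0.93 (SE 0.17), and Cyp7b1 and Slco1a1, described above, are the other members. Of 14 tested genes known to be higher in female liver 0 were called, with a median of 0.06. Each of the 4 male-biased calls and both calls of the axis held without any 1 array, and with the Gapdh ratio as a covariate. Without both arrays of highest ratio none of the 6 was called, at sizes close to those with all arrays: Bcl6 1.97, Igfbp2 0.71, Cyp7b1 0.68, Hsd3b5 0.65, Slco1a1 0.44 and Ugt2b38 0.79. Xist, transcribed from the inactive X, read under 50 on all 6 arrays. The Y-linked genes Eif2s3y, Kdm5d and Uty read 859 to 1091, 141 to 189 and 115 to 146 on them, the pattern of male tissue.

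Transcription factors of hepatocytes differed in both directions. Hhex, a homeobox factor of early liver formation (chromosome 19, 37434841 to 37440731), read 407, 387 and 406 in knockout livers and 1271, 1073 and 1328 in wild-type livers, a fall of 1.57 (SE 0.17, adjusted p 2.38e-05). Hnf4a, a nuclear receptor that maintains hepatocyte identity, read 5955, 5640.4 and 5604 in knockout livers and 3976, 4219 and 4305 in wild-type livers, a rise of 0.46 (SE 0.08, adjusted p 0.00238). Zbtb20, a repressor of fetal liver genes, read 2221, 2079 and 2289.8 in knockout livers and 1439.7, 1571 and 1410.2 in wild-type livers, a rise of 0.57 (SE 0.10, adjusted p 0.00317). In none of the 3 did the groups overlap. Tbx3 rose by 0.64 (adjusted p 0.0347), while Foxa1 (-0.12), Foxa2 (-0.15), Cebpa (0.26) and Prox1 (0.66, adjusted p 0.108) were not called, so that 3 of 18 rose and 1 fell. Tbx3 lost its call without knockout replicate 1, 2 or 3 or wild-type replicate 1 or 3 (0.59, adjusted p 0.133, without knockout replicate 1). Afp, a fetal liver gene, differed by -0.79 (adjusted p 0.161), and 0 of 17 fetal and imprinted genes were called. Of 25 nuclear receptors 0 were called. In the lobule, Axin2, a Wnt target near the central vein, rose by 0.81 (SE 0.19, adjusted p 0.0242), but Glul and Cyp2e1, also of that zone, differed by -0.09 and 0.08, and 0 of 17 genes of the portal zone were called. For Axin2 the call was lost without knockout replicate 1, 2 or 3 or wild-type replicate 1 or 3 (0.66, adjusted p 0.127, without wild-type replicate 3). Among 30 cytochrome P450 genes of foreign compounds Cyp2c70, which makes muricholic acids in mice, read 10857, 11094 and 10487 in knockout livers and 6448, 5693 and 6502 in wild-type livers and rose by 0.80 (SE 0.10, adjusted p 0.00012). Cyp2a12 rose by 0.33 (adjusted p 0.0474), and the other 28 were not called. Cyp2a12 lost its call without any 1 of the 6 arrays (0.30, adjusted p 0.162, without knockout replicate 3). Of 34 genes of glutathione and NRF2, Gstt3 fell by 0.57 (adjusted p 0.00518) and Cbr1 by 0.41 (adjusted p 0.0289), and Nqo1 differed by -0.37. For Cbr1 the call was lost without knockout replicate 1 or 3 or wild-type replicate 1 or 3 (-0.35, adjusted p 0.14, without knockout replicate 3).

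A few immediate early genes, which respond to stimuli within minutes, and a few clock genes rose. Egr1, a zinc finger factor, read 1849.5, 1660.2 and 2029.5 in knockout livers and 398, 435 and 492 in wild-type livers, a rise of 2.03 (SE 0.50, adjusted p 0.0347). Egr1 lost its call without any 1 of the 6 arrays (1.96, adjusted p 0.117, without knockout replicate 3). Ier2 read 586, 516 and 460.4 in knockout livers and 241, 302 and 225 in wild-type livers, a rise of 0.99 (SE 0.14, adjusted p 0.00091) that held without any 1 array. Junb, a partner of Fos, rose by 0.82 (SE 0.21, adjusted p 0.0397). For Junb the call was lost without knockout replicate 1, 2 or 3 or wild-type replicate 1 or 3 (0.72, adjusted p 0.155, without wild-type replicate 3). In all 3 of 24 tested genes rose and 0 fell, with a median of 0.33, while Fos (0.91, adjusted p 0.173), Jun (0.40) and Myc (-0.23) were not called. Of 16 core clock genes 3 rose and 0 fell, with a median of 0.24. Clock, the activator, rose by 0.59 (SE 0.11, adjusted p 0.00518), Bhlhe40, a repressor, by 0.83 (adjusted p 0.0133) and Cry1, another repressor, by 0.66 (adjusted p 0.0446). Cry1 read 143, 195 and 204 in knockout livers and 147, 82.0 and 102 in wild-type livers and is the only called gene whose groups overlapped. Bhlhe40 lost its call without knockout replicate 1 or 2 or wild-type replicate 3 (0.78, adjusted p 0.0708, without wild-type replicate 3). For Cry1 the call was lost without knockout replicate 2 or 3 or wild-type replicate 2 or 3 (0.57, adjusted p 0.177, without knockout replicate 3). Arntl, the partner of CLOCK, differed by 0.11, Per1 and Per2 by 0.60 and -0.40, Nr1d1 by 1.19 (adjusted p 0.0832) and the output factor Dbp by 1.44 (adjusted p 0.0811), with none called. Of the 3 clock calls 0 held without both arrays of highest Gapdh ratio, and 1 of the 3 immediate early calls did.

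Markers of cells other than hepatocytes differed between the groups, and in whole liver fewer cells of a type and less RNA per cell cannot be told apart. The summed signal of 22 macrophage and Kupffer cell markers was 9287 to 9688 on knockout arrays and 12619 to 13039.9 on wild-type arrays. That of 27 stellate cell and matrix markers was 6751 to 7079.7 on knockout arrays and 8456 to 9807 on wild-type arrays. That of 21 endothelial markers was 6422 to 6596 on knockout arrays and 6988 to 7301 on wild-type arrays. The groups did not overlap in these 3 sums, nor in the sum of 16 lymphocyte markers (463 to 560.5 on knockout arrays and 573 to 604 on wild-type arrays), of which 12 were under 50 on all 6 arrays. The endothelial sum weighs most on Clec4g, Fcgr2b and Maf, which were lower on each knockout array than on any wild-type array. Of the 20 tested endothelial markers 12 were negative and 8 positive. The sum of 13 hepatocyte markers, 303606 to 324782 on knockout arrays and 287188 to 307417 on wild-type arrays, overlapped, as did those of neutrophils, red cells and bile ducts. Of 17 pancreas, fat, muscle and gut markers 14 were under 50 on all 6 arrays, and their sum was 2875 to 3125 on knockout arrays and 2769 to 2856 on wild-type arrays. That difference rests on the elastase gene Cela1, the list's called member, which read 753, 684 and 727 in knockout livers and 457, 352 and 455 in wild-type livers. Without it the sum was 2149 to 2372 on knockout arrays and 2313 to 2503 on wild-type arrays. The part of these shifts in the results above was not tested.

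**Figure D4:**
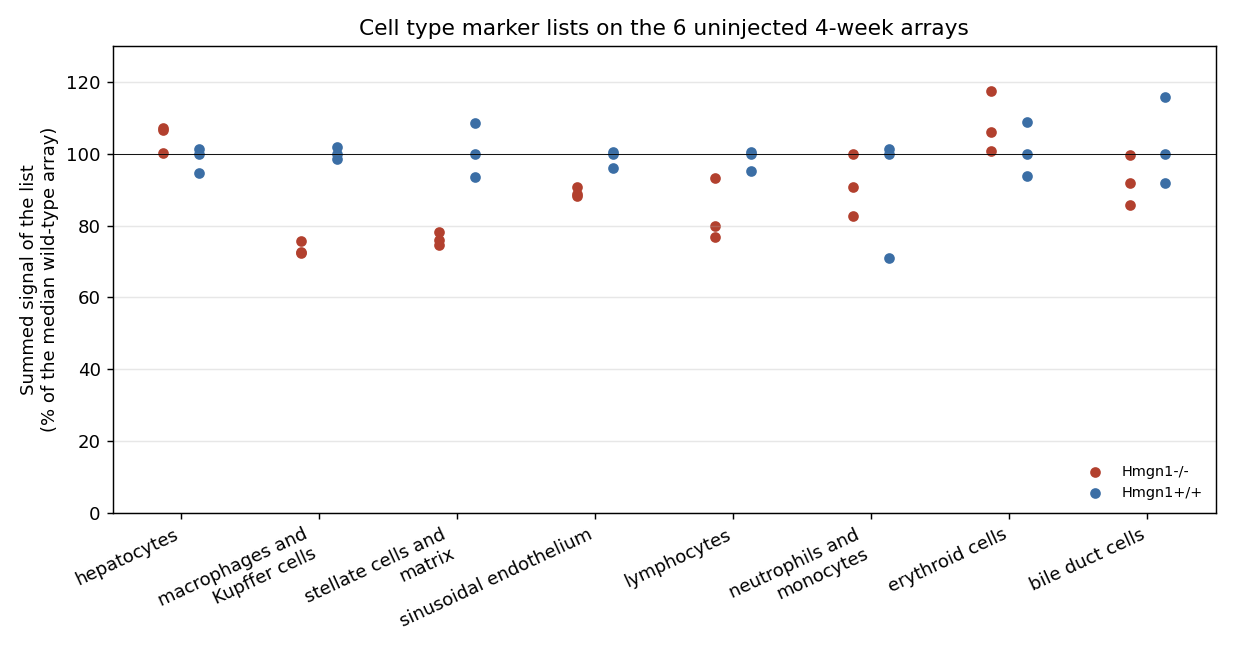
Summed signals of 8 cell type marker lists on the 6 uninjected 4-week arrays, in percent of the median wild-type array, with knockout arrays in red to the left of wild-type arrays in blue and 1 point per array. The knockout sums of macrophage markers are 72.5 to 75.6% and those of stellate cells 74.6 to 78.3%, below all wild-type arrays; the hepatocyte sums are 100.1 to 107% on knockout arrays.

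Among the macrophage markers 5 of 22 fell and 0 rose, 20 were negative, and the median was -0.48. Tyrobp, an adaptor of myeloid receptors, read 144, 160.5 and 154 in knockout livers and 393, 326 and 356 in wild-type livers, a fall of 1.14 (SE 0.16, adjusted p 0.000505). Csf1r, the receptor for the macrophage growth factor, read 1537, 1577 and 1444 in knockout livers and 2208, 2286 and 2110.1 in wild-type livers, a fall of 0.53 (SE 0.10, adjusted p 0.00494). Lyz2, lysozyme, fell by 0.82 (SE 0.16), and C1qa and C1qc, complement chains made by Kupffer cells, fell by 0.61 and 0.56. Clec4f and Timd4, markers of resident Kupffer cells, differed by -0.43 (adjusted p 0.0835) and -0.43 (adjusted p 0.374). Lyz2 lost its call without knockout replicate 2 or wild-type replicate 3 (-0.77, adjusted p 0.0541, without wild-type replicate 3). For C1qa the call was lost without knockout replicate 1, 2 or 3 or wild-type replicate 1 or 3 (-0.52, adjusted p 0.179, without knockout replicate 3). C1qc lost its call without knockout replicate 1 or wild-type replicate 1 or 3 (-0.51, adjusted p 0.0894, without knockout replicate 1). Without both arrays of highest Gapdh ratio 2 of the 5 calls held. Of 26 tested stellate cell and matrix genes 2 fell and 0 rose, 23 were negative, and the median was -0.33. Dcn, the proteoglycan decorin, read 2027, 1934 and 1944 in knockout livers and 2783, 2881 and 2875 in wild-type livers, a fall of 0.53 (SE 0.10, adjusted p 0.00413). Acta2, smooth muscle actin, read 101, 80.1 and 123 in knockout livers and 135, 583 and 273 in wild-type livers, where replicate 2 was the highest, a fall of 1.35 (SE 0.35, adjusted p 0.0423). For Acta2 the call was lost without knockout replicate 1, 2 or 3 or wild-type replicate 2 or 3 (-0.85, adjusted p 0.158, without wild-type replicate 2). The collagens Col1a1 and Col3a1 differed by 0.03 and -0.80. Of 20 endothelial genes 0 were called, and the median was -0.07.

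Genes of inflammation and the acute phase rose in part, beside these lower macrophage sums. Il1r1, the receptor of interleukin-1, read 486, 499.6 and 489.6 in knockout livers and 146, 281 and 213 in wild-type livers, a rise of 1.19 (SE 0.18, adjusted p 0.00107). Stat3, which carries interleukin-6 signals, rose by 0.52 (adjusted p 0.0455) and Lbp, which binds endotoxin, by 0.41 (adjusted p 0.0382). Stat3 lost its call without any 1 of the 6 arrays (0.49, adjusted p 0.153, without knockout replicate 1). Lbp lost its call without any 1 of the 6 arrays (0.40, adjusted p 0.121, without knockout replicate 3). Cd14, an endotoxin co-receptor, read 6.79, 35.1 and 22.9 in knockout livers and 75.5, 73.4 and 58.8 in wild-type livers, a fall of 1.25 (SE 0.26, adjusted p 0.0106) at low signals. Cd14 lost its call without knockout replicate 1 (-0.93, adjusted p 0.0718). With Steap4, 4 of 29 tested genes rose and 1 fell, and the median was 0.14. Other acute phase genes were not called, with Saa1 at 0.44, Saa3 at 0.40, Hp at 0.04 and Orm2 at -0.48. Apart from C1qa and C1qc, none of 33 complement and coagulation genes was called. Of 30 genes of interferon and antigen presentation Psmb9, an immunoproteasome subunit, fell by 0.64 (SE 0.13, adjusted p 0.0118), and its partner Psmb8 differed by -0.49. For Psmb9 the call was lost without knockout replicate 1 or 2 (-0.63, adjusted p 0.0517, without knockout replicate 1).

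Transporters and several genes outside these pathways were also among the largest differences. Slc22a7, an organic anion transporter, read 537, 431 and 482 in knockout livers and 194, 203 and 189 in wild-type livers, a rise of 1.23 (SE 0.14, adjusted p 6.63e-05). Slc15a2, a peptide transporter, read 158, 119 and 166 in knockout livers and 30.3, 24.4 and 29.7 in wild-type livers, a rise of 1.88 (SE 0.28, adjusted p 0.000959), although its other 2 probe sets, near the floor, were at -0.58 and -0.42. The groups did not overlap in either gene. The amino acid transporter Slc38a2 and the carnitine transporter Slc22a5 rose by 0.46 and 0.42. Slc38a2 lost its call without knockout replicate 1 or 3 or wild-type replicate 1 or 3 (0.44, adjusted p 0.0788, without knockout replicate 3). For Slc22a5 the call was lost without knockout replicate 1, 2 or 3 or wild-type replicate 3 (0.37, adjusted p 0.114, without knockout replicate 1). In all 4 of 20 tested solute carriers of a list of amino acid, peptide and organic ion transporters rose and 0 fell. Slc22a29, of the organic anion transporter family, read 36.4, 11.2 and 24.9 in knockout livers and 93.5, 104 and 85.2 in wild-type livers, a fall of 1.50 (SE 0.24, adjusted p 0.00157). Olig1, a transcription factor known from oligodendrocytes (chromosome 16, 91269769 to 91271939), read 32.7, 22.5 and 32.0 in knockout livers and 148, 138 and 132 in wild-type livers, a fall of 1.79 (SE 0.40, adjusted p 0.0197). Olig1 lost its call without knockout replicate 1, 2 or 3 or wild-type replicate 1 or 3 (-1.68, adjusted p 0.0836, without knockout replicate 2). Dock6, an exchange factor for small GTPases, read 51.0, 57.1 and 39.9 in knockout livers and 134, 148 and 129.9 in wild-type livers, a fall of 1.24 (SE 0.16, adjusted p 0.00039). Naip2, a sensor of bacterial proteins, read 17.0, 15.7 and 18.6 in knockout livers and 53.2, 70.8 and 64.8 in wild-type livers, and Sla, a signalling adaptor of blood cells, read 14.9, 4.02 and 22.2 in knockout livers and 50.7, 54.2 and 46.4 in wild-type livers. Both fell, by 1.25 and 1.21, at low signals, and another probe set of Sla was at 0.27. For Naip2 the call was lost without knockout replicate 1, 2 or 3 or wild-type replicate 2 or 3 (-1.23, adjusted p 0.0827, without wild-type replicate 3). Sla lost its call without knockout replicate 1 or 2 or wild-type replicate 1, 2 or 3 (-0.95, adjusted p 0.133, without knockout replicate 2).

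Erdr1, a gene of the pseudoautosomal region of the sex chromosomes, read 813, 796 and 783 in knockout livers and 229, 449 and 337 in wild-type livers, a rise of 1.25 (SE 0.23, adjusted p 0.00472). Rpl41, a ribosomal protein, read 3445, 6205 and 3320.3 in knockout livers and 10013, 10348 and 10588 in wild-type livers, a fall of 1.31 (SE 0.24, adjusted p 0.00485), but its other 3 probe sets were at -0.34, 0.33 and 0.48. These probe sets of Rpl41 therefore disagree in sign. Fmr1nb and Opalin, known from testis and from myelin, rose by 1.34 and 1.25 at low signals, with Opalin at 29.0, 40.8 and 38.7 in knockout livers and 0.786, 0.999 and 20.1 in wild-type livers. 3110045C21Rik, a gene without an assigned function here, fell by 1.49 at similarly low signals. Sizes at low signals depend on the number added before the logarithm, and 9 of the 30 largest rises and falls moved by much when 1 or 64 was added in place of 16. Opalin was then at 3.12 or 0.50, Fmr1nb at 1.78 or 0.78, Slc15a2 at 2.34 or 1.19 and Olig1 at -2.24 or -1.13. Slc22a29 was at -2.06 or -0.85, 3110045C21Rik at -2.87 or -0.69, Naip2 at -1.81 or -0.64, Cd14 at -1.89 or -0.65 and Sla at -2.07 or -0.57. No sign changed. The linker histone gene H1f2, whose protein shares nucleosomes with HMGN1, read 775, 943 and 962 in knockout livers and 1642, 1567 and 1609 in wild-type livers, a fall of 0.84 (SE 0.13, adjusted p 0.0015). Kdm6b, a demethylase of histone H3, rose by 0.75 (adjusted p 0.0494), and the other 21 of 23 tested genes of chromatin were not called. For Fmr1nb the call was lost without knockout replicate 1 or wild-type replicate 3 (1.06, adjusted p 0.0729, without wild-type replicate 3). Opalin lost its call without knockout replicate 2 or 3 or wild-type replicate 1 (1.07, adjusted p 0.0609, without wild-type replicate 1). For 3110045C21Rik the call was lost without knockout replicate 2 or 3 or wild-type replicate 2 or 3 (-1.22, adjusted p 0.138, without knockout replicate 3). Kdm6b lost its call without knockout replicate 1, 2 or 3 or wild-type replicate 1 or 3 (0.56, adjusted p 0.203, without wild-type replicate 1).

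Pathways linked to growth, damage and stress held few calls. Of 32 DNA repair genes 0 were called, with a median of -0.01, and the nucleotide excision repair genes Xpa, Ercc1 and Ercc8 differed by 0.20, -0.51 and 0.70. Of 19 p53 targets 0 were called, with Mdm2 at 0.20 and Cdkn1a at 0.37. Of 27 cell cycle genes Cdkn1b, which encodes the inhibitor p27, rose by 0.44 (adjusted p 0.0445) and the other 26 were not called, among them Mki67 (0.05) and Ccnd1 (0.44). For Cdkn1b the call was lost without knockout replicate 1, 2 or 3 or wild-type replicate 1 or 2 (0.41, adjusted p 0.151, without knockout replicate 1). Of 28 genes of endoplasmic reticulum stress 27 were positive, with a median of 0.24, but 1 was called, the stress kinase Eif2ak3, at 0.50 (adjusted p 0.0446). Eif2ak3 lost its call without any 1 of the 6 arrays (0.41, adjusted p 0.187, without knockout replicate 2). Of 14 heat shock genes Dnajb1 fell by 0.57 (adjusted p 0.0261). For Dnajb1 the call was lost without knockout replicate 1, 2 or 3 or wild-type replicate 2 or 3 (-0.55, adjusted p 0.0965, without knockout replicate 3). Of 28 genes of the urea cycle and amino acid breakdown Csad, which makes taurine, fell by 0.58 (adjusted p 0.02). Csad lost its call without knockout replicate 1 or 2 or wild-type replicate 1 or 3 (-0.53, adjusted p 0.097, without knockout replicate 1). Of 23 genes of mitochondrial respiration 0 were called, 20 were negative, and the differences ran from -0.20 to 0.02. Of 52 gene lists 17 had no called member, and 311 of the 397 called genes belong to none of the lists.

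Called genes lay on all chromosomes with more than 4 tested genes. The share called ran from 1.82% on chromosome 9 to 37 of 771 genes on chromosome 4, and it was 2.91% (12 of 413) on chromosome 16, which carries Hmgn1. Of those 12 genes 9 rose and 3 fell. The nearest to Hmgn1 were Cldn14, Cbr1, Slc5a3 and Olig1, at -2.20, -2.51, -4.06 and -4.85 Mb from its start to theirs, and Bcl6, Hes1, Slc15a2 and Zbtb20 lay at -72.2 to -53.2 Mb. Cldn14 and Slc5a3, named for their position, were at 0.91 (SE 0.23, adjusted p 0.0433) and 0.64 (SE 0.16, adjusted p 0.0412), and both calls were lost without any 1 of the 6 arrays, with adjusted p of up to 0.143 and 0.135. The share on this chromosome was close to that over all genes, 3.08%. It covers the whole chromosome and says nothing of the stretch near Hmgn1, where tested genes were not counted.

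The injected groups are other arrays of the same lines, and their genotype differences share no array with the uninjected one. The 6 saline arrays stand apart in scale, with highest signals of 16719.6 to 21752 against 46967 to 60173 on the other arrays, so sizes with saline are not on the same footing as those at 4 weeks. With saline 374 of the 397 called genes had the same sign as at 4 weeks, beside 64.7% of all 12896 genes, and with DEN 165 had it, beside 46.7% of all genes. For Id1 the difference was 2.48 at 4 weeks, against 1.52 in saline livers and 0.19 in DEN livers. For Egfr it was 1.71, 0.80 and 0.33, and for Cyp7a1 -2.51, -0.93 and 0.63, in the same order. In the 18 genes from mevalonate to cholesterol the median was -0.84 at 4 weeks, -0.38 with saline and 0.15 with DEN, with 17 and 5 genes negative in the injected groups. Macrophage markers had medians of -0.48, -0.18 and 0.02, and metallothioneins and zinc genes of 0.22, 0.15 and -0.14. Choosing genes by their 4-week call by itself favours smaller sizes in the other groups. The test of the difference between them called 1 of 27022 probe sets (0.0037%), that of Scara5, which differed by 3.46 at 4 weeks and 0.78 with saline. No probe set was called with 64 added before the logarithm, nor without 1 array other than knockout saline replicate 1, wild-type saline replicate 2 or wild-type replicate 2 at 4 weeks. At an unadjusted p under 0.05 there were 1086 probe sets (4.02%).

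The difference at 4 weeks and that with DEN were told apart more often. The test called 206 of 27022 probe sets (0.762%), and 139 of 12896 genes (1.08%). Of the 139 genes 112 were also called at 4 weeks, and in 111 of these the size was larger at 4 weeks than with DEN, a count that choosing them by their 4-week call favours. They include 7 of the 18 sterol genes, the 4 called genes of metallothioneins and zinc and the 3 called genes of iron handling, with Slc39a14 in both of these lists. The genotype difference of Mt2 was 3.26 at 4 weeks and -0.87 with DEN, which are 4.13 apart (adjusted p 0.049), and that of Hes1 1.57 and 0.00 (adjusted p 0.0215). Tyrobp differed by -1.14 and 0.10 (adjusted p of the difference 0.0111), and Fasn by -1.41 and -0.12 (adjusted p 0.0159). Genes from several of the groups above were thus among the 112. The count of probe sets was 97, 111 and 61 without knockout replicate 1, 2 and 3 at 4 weeks in turn, and 121, 354 and 98 without wild-type replicate 1, 2 and 3. It was 101 without knockout DEN replicate 2 and 319 without knockout DEN replicate 3. Age, injection and the Gapdh ratio differ together between these groups and cannot be told apart. The ratio was 1.13 to 2.19 at 4 weeks, 1.02 to 1.13 on wild-type DEN arrays and 0.91 to 0.94 on knockout DEN arrays.

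**Figure D5:**
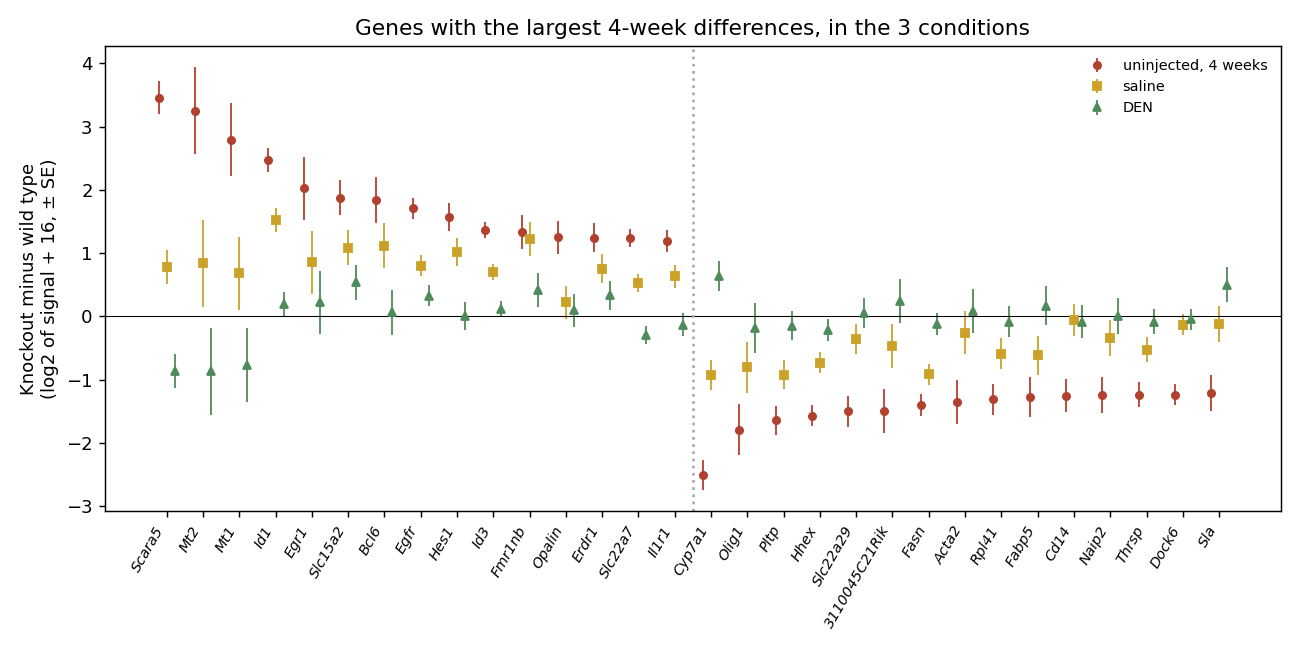
Knockout minus wild-type differences (log2 of signal plus 16, ± SE) of the 15 genes with the largest rises (left) and the 15 with the largest falls (right) at 4 weeks, on uninjected 4-week, saline and DEN arrays. The genes were chosen by their 4-week values; the saline differences keep the sign in all 30, and Scara5, Mt2, Mt1 and Cyp7a1 are among those with the opposite sign with DEN.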

How the data were processed

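Total RNA of frozen mouse liver was hybridised to Affymetrix Mouse Genome 430 2.0 arrays, 18 in all, 3 in each of 6 groups of genotype and treatment. The deposited values are linear intensities from MAS5, per the submitters' processing notes, and their trimmed mean is 150.001 on every array, so the authors had scaled them. The deposited table was turned here into log2 values after adding 16, and the 45037 probe sets that are no controls were kept where their mean lay at or above the 40th percentile, which left 27022. All 18 arrays were fitted with limma 3.58.1 in R 4.3.3 (1 mean per group, trended eBayes, 12 residual and 9.19 prior degrees of freedom), with Benjamini-Hochberg adjustment over all tested probe sets. The script was checked on simulated data. A gene was read from its tested single-gene probe set of highest mean. The number of arrays limits the precision, and arrays give no counting interval.

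The members and lists were chosen with earlier results of these data known. The genes described are Hmgn1, the 15 largest called rises, the 15 largest called falls and members of the lists, of which those called could be named and those not called were named with their values; others are said to be chosen after their values were seen. Names came from GEO's platform annotation (34945 probe sets with 1 gene, 932 with several and 9160 with none) and positions and promoters from RefSeq, GRCm38.p6. Replicate numbers did not pair the genotypes: deviations of same-numbered arrays correlated at -0.0949, -0.0978 and -0.0067. Alternatives were other scalings, added numbers, filters, spread estimates and choices of arrays or probe sets, each array left out in turn, and a block.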

Additional observations from a re-analysis of the deposited data

Results flagged for a closer look

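The genotype difference itself was tested for a change between uninjected and injected livers, and the genes below passed that test at an adjusted p under 0.05 (limma). Between 4 weeks and saline 1 probe set passed, that of Scara5, whose difference was 2.68 larger in log2 at 4 weeks.

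Between 4 weeks and DEN 206 probe sets passed. Among the genes with the largest rises at 4 weeks, the 4-week difference exceeded that with DEN by 4.33 for Scara5, 4.13 for Mt2, 3.56 for Mt1, 2.29 for Id1, 1.57 for Hes1, 1.53 for Slc22a7, 1.38 for Egfr, 1.32 for Il1r1 and 1.26 for Id3. Among the genes with the largest falls, the 4-week difference minus that with DEN was -3.15 for Cyp7a1, -1.71 for Sla, -1.55 for Slc22a29, -1.49 for Pltp, -1.35 for Hhex, -1.29 for Fasn and -1.19 for Dock6. These genes were chosen by their 4-week values, which enter both tests. For these tests the counts of probe sets without 1 array are given, but single outlying arrays were not examined gene by gene.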

How the results depend on the processing

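At 4 weeks 611 probe sets were called, 343 higher and 268 lower. The count was 180 (91 higher, 89 lower) without the arrays of highest Gapdh ratio, which leaves 2 fewer arrays. With the Gapdh ratio as a covariate it was 810 (469 and 341). It was 367 (169 higher) with array medians set equal, 1000 (566 and 434) with array weights, 269 (158 and 111) with no intensity trend and 255 (138 and 117) with the saline arrays left out, which leaves fewer arrays in the fit. Without a filter 223 were higher. Quantile normalization gave 553, an added 1 or 64 gave 584 and 597, and the 4-week arrays alone gave 454. With the replicate block, on the 4-week arrays alone, 181 were called (88 and 93), and of 97 called genes of the named set and the lists 54 stayed called. Without 1 array the counts ranged from 269 to 591, those higher from 137 to 316 and those lower from 115 to 275, and 53 to 78 of the 97 genes stayed called. None of the 97 changed sign under any of these settings. Hmgn1 changed sign with quantile normalization (0.0110), without the arrays of highest Gapdh ratio (0.0418) and without wild-type replicate 2 (0.0618), and ranged from -0.131 to 0.0618 without 1 array. The difference from saline had 1 call, 0 with 64 added and 0 to 1 without 1 array. The difference from DEN had 206 calls, 101 with medians set equal, 120 without a filter and 61 to 354 without 1 array. The cause of these shifts was not tested. At low signals, close to background, the size of a difference depends on the number added. Of the list medians, that of the mevalonate branch ran from -1.05 to -0.90 and that of macrophage markers from -0.51 to -0.43 over the scalings, the mean over all probe sets of a gene and the fit without the arrays of highest Gapdh ratio. For the lists, the fit without those arrays was chosen after seeing the data.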

Other observations

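Some gene families outside the lists above were looked at after the values were seen, and only their counts are given, beside 1.78% of all genes called higher and 1.29% called lower. Of 9 tested Srsf genes, which encode splicing factors, 4 rose and 1 fell, and 1 of these 5 calls held in each fit without 1 array. Of 16 tested Kdm genes, which encode histone demethylases, 4 rose and 0 fell, and 1 call held likewise. Of 9 tested genes of the pentose phosphate pathway, which supplies NADPH for lipid synthesis, 1 rose and 3 fell, and 3 of the 4 calls held. Of 6 tested fatty acid binding proteins 2 fell and 0 rose, and 0 of the 2 calls held.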
